A study of Mus musculus with 60 samples.

Results

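Expression of 10 contractile and matricellular genes was followed in mouse embryonic stem cells over 96 h of 2i. The genes were found by symbol in the table of raw counts: Acta2, Tagln, Cnn1, Cnn2, Myl9, Tpm1, Tpm2, Ccn1, Ccn2 and Thbs1, which are 10 of the 50559 genes listed. 9 of them were among the 15083 genes that passed the filter on low counts and were tested, and Tagln did not pass it. On GRCm39 the contractile genes lie with Acta2 at chr19:34217736-34232985 (- strand), Tagln at chr9:45840926-45847356 (- strand), Cnn1 at chr9:22010501-22020517 (+ strand), Cnn2 at chr10:79824434-79831234 (+ strand), Myl9 at chr2:156617324-156623577 (+ strand), Tpm1 at chr9:66929872-66956954 (- strand) and Tpm2 at chr4:43513726-43523583 (- strand). The matricellular genes lie with Ccn1 at chr3:145352726-145355740 (- strand), Ccn2 at chr10:24471340-24474581 (+ strand) and Thbs1 at chr2:117942357-117957614 (+ strand).

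Polyadenylated RNA was sequenced from 60 libraries, which form 20 groups of 3 biological replicates. Every culture grew on gelatin in medium with serum and LIF (leukaemia inhibitory factor), and each of 4 lines was collected at 0, 12, 24, 48 and 96 h of 2i. 2i combines PD0325901, which blocks MEK and was used at 1 µM, with CHIR99021, which blocks GSK3 and was used at 3 µM. The 0 h cultures received neither. The lines were 1A wild type, V19 wild type, and EZH2 and EED knockouts made from 1A with Cas9, called Ezh2 knockout and Eed knockout here. Ezh2 and Eed are core subunits of Polycomb repressive complex 2 (PRC2), which places the repressive mark H3K27me3. Each knockout is 1 line, described as carrying loss-of-function mutations, so genotype and line cannot be told apart. V19 was derived independently of 1A. The labels call the replicates biological and give no shared batch or day, so p-values measure the spread between these cultures.

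Actin and YAP signalling meet in these genes. When actin polymerizes, the coactivators of the MRTF family leave monomeric actin, enter the nucleus and join serum response factor (SRF), which binds the CArG box in front of contractile genes. YAP and TAZ, kept in the cytoplasm by Hippo kinases when tension is low, join TEAD factors and switch on Ccn1, Ccn2 and other secreted or cytoskeletal genes. In adult tissue high levels of the contractile members mark smooth muscle cells and myofibroblasts.

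Upstream sequence shows how unevenly these motifs lie among the members. RefSeq sequence (build GRCm38.p6) was found for 7 of the 10 members, and the 250 bases before the annotated start were searched on both strands. The CArG box was read as CC, then 6 bases that are each A or T, then GG. A CArG-like site has C or G at 1 of those 6 bases, and the TEAD motif was CATTCC or its reverse complement GGAATG. The 5 sequences with a match are printed 5′ to 3′ on the strand of the gene, with the matches in capitals.
Acta2 (chr19:34255374-34255623, - strand): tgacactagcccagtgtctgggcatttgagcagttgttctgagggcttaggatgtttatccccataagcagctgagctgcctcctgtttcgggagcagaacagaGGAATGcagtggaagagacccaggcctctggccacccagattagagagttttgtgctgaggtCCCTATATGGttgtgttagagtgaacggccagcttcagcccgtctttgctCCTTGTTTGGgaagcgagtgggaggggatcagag
Myl9 (chr2:156775214-156775463, + strand): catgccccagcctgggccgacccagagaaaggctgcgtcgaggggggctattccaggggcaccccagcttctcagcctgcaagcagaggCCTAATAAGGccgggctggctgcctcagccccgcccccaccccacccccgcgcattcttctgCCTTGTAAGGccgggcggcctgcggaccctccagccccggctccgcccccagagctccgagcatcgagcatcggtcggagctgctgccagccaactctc
Cnn2 (chr10:79988350-79988599, + strand): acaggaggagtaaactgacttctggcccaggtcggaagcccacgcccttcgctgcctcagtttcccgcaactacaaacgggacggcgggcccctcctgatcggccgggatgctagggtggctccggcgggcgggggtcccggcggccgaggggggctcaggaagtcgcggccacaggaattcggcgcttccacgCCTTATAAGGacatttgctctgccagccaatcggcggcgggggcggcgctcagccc
Tpm1 (chr9:67049214-67049463, - strand): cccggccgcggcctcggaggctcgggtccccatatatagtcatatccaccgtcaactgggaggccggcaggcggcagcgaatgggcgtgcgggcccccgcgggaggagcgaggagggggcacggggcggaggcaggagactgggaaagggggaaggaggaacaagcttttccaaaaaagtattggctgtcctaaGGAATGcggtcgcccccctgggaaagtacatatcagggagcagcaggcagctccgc
Ccn1 (chr3:145649986-145650235, - strand): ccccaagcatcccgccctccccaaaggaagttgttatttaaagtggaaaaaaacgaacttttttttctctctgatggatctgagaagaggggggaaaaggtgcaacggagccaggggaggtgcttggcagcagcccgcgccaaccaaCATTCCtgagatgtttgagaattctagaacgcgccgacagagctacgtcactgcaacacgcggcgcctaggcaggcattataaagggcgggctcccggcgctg

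Cnn2 and Myl9 carried a CArG box, from 56 to 47 and from 161 to 152 bases before the start. Such a box stood in 1.47% of the 32851 mouse promoters of the same length. Acta2 had CArG-like sites at 84 to 75 and 34 to 25 bases before the start and Myl9 had one at 99 to 90, a class found in 7.24% of promoters. The TEAD motif stood at 146 to 141 bases in Acta2, 56 to 51 in Tpm1 and 103 to 98 in Ccn1, and in 12.6% of all promoters. The windows of Cnn1 (chr9:22099003-22099252, + strand) and Tpm2 (chr4:43523555-43523804, - strand) held none of the 3 motifs. A match describes letters and not binding.

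Library totals were 2561169 to 11065948 assigned reads, with a median of 6055990. In the knockouts the targeted gene was low in every library: Ezh2 was at 14.5 to 19.9 CPM (assigned reads scaled to a common library total) in the 15 Ezh2 knockout libraries against 194 to 278 CPM in 1A wild type, and Eed at 15.3 to 28.2 CPM in the Eed knockout against 246 to 393 CPM. 5 libraries lay more than 2 times the median distance from their group mean: Eed knockout at 12 h replicates 1 and 3, 1A wild type at 24 h replicate 1, and V19 at 48 h replicates 2 and 3. All 10 stem cell markers examined (Pou5f1, Nanog and others) were tested and summed to 4760 to 8560 CPM at 0 and 96 h in the 4 lines, and to as little as 3320 CPM in the Eed knockout at 24 h. Of the 10 smooth muscle markers the defining genes Myh11 and Myocd did not exceed 0.98 and 0.883 CPM in any library. Smtn was at 18.6 to 51.2 CPM and Des at 7.96 to 30.8 CPM in all lines, and Lmod1 reached 11.7 CPM in the Eed knockout. These are bulk cultures, in which fewer expressing cells and less RNA per cell cannot be told apart.

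The members differed widely in abundance. Per kilobase of exon, the median level over the 60 libraries was highest for Cnn2, a calponin found outside muscle, at 88.3 CPM per kb. The broadly expressed tropomyosin gene Tpm1 followed at 32.5 CPM per kb, and the matricellular genes Ccn2 and Ccn1 were at 32.2 and 26.9 CPM per kb. Tpm2, a second tropomyosin gene, and Myl9, a regulatory light chain of non-muscle and smooth muscle myosin, were at 12.7 and 11.9 CPM per kb. Acta2 (smooth muscle alpha-actin) was at 3.48, Thbs1 (thrombospondin 1, a secreted adhesive glycoprotein) at 2.20 and Cnn1 (smooth muscle calponin) at 1.01 CPM per kb. The neighbours Tpm1 and Ccn2, and Tpm2 and Myl9, lay well within each other's spread over the 60 libraries. Tagln (SM22, an actin-binding protein of smooth muscle) was at 0.104 CPM per kb.

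Tagln was barely detected. Its 69 counts over all 60 libraries never exceeded 4 in one library, and 21 libraries had none. Its counts over 15 libraries each were 23 in 1A wild type, 13 in V19, 22 in the Ezh2 knockout and 11 in the Eed knockout. Tagln was not tested, and 1 read was worth 0.0879 to 0.416 CPM. Some groups did not overlap, such as the Eed knockout at 96 h (0 to 0.146 CPM, 2 counts) and 1A (0.191 to 0.551 CPM, 6 counts), but these rest on so few counts that no direction is read from them.

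The span between groups was largest for Acta2. Its group means ran from 2.02 CPM in V19 at 0 h to 97.7 CPM in the Eed knockout at 96 h, a ratio of 48.4. The ratio of the highest to the lowest group mean was 35.0 for Thbs1 and 29.0 for Cnn1, against 10.9 for Tpm2, 6.75 for Ccn1, 6.31 for Myl9, 5.51 for Ccn2, 5.23 for Tpm1 and 3.38 for Cnn2. The Cnn1 ratio rests on 7 counts in the lowest group, V19 at 96 h.

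**Figure D1:**
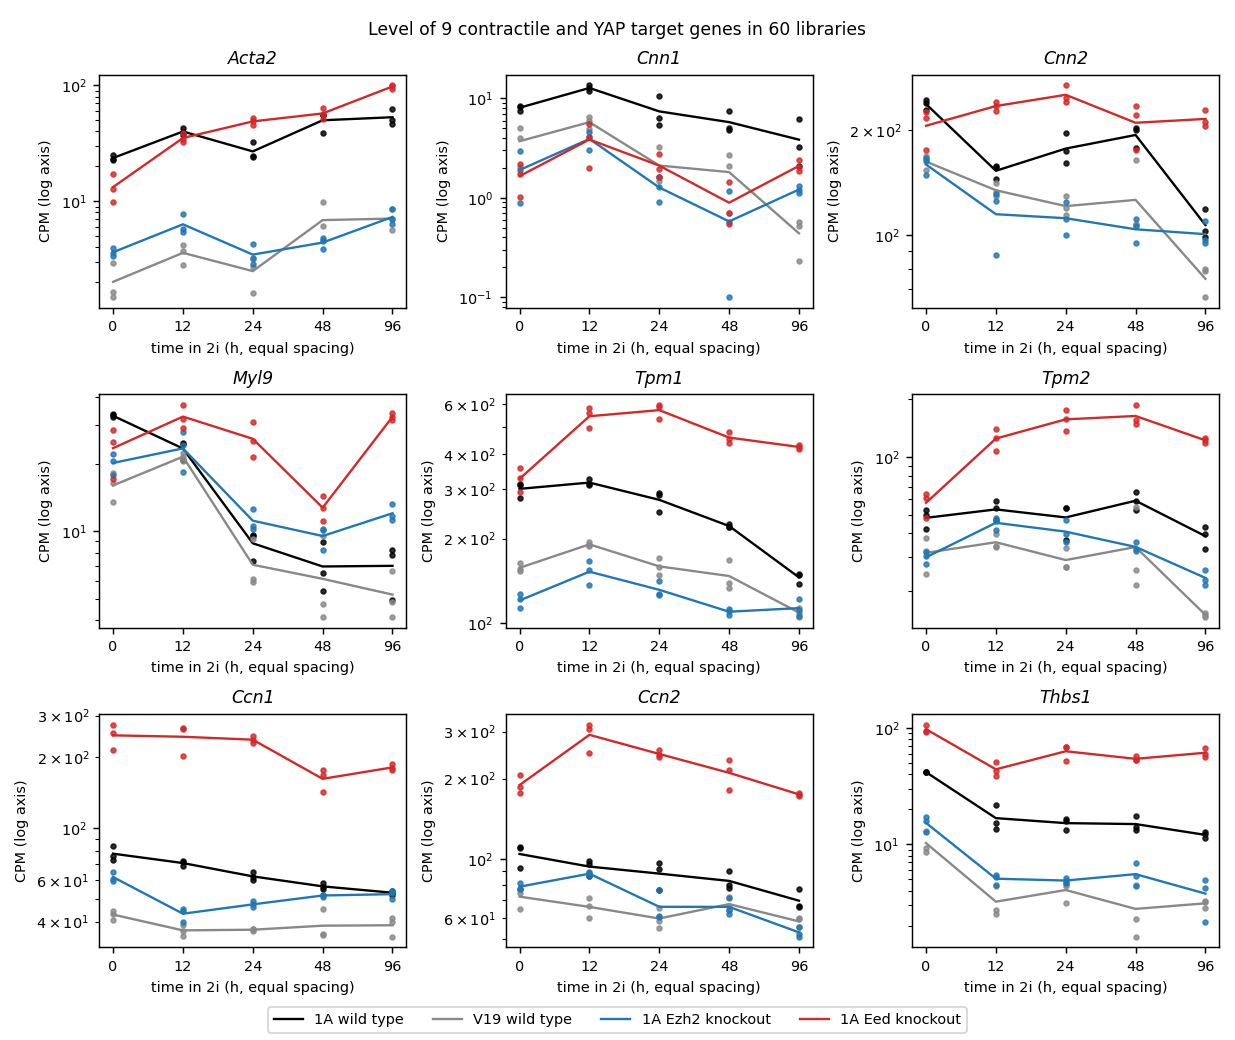
Level of the 9 tested genes in CPM (log axes) against time in 2i (h, drawn at equal spacing); each point is 1 library, lines join the means of 3 libraries, and colours mark the 4 lines. The Eed knockout lies above the other lines for Ccn1, Ccn2 and Thbs1 at all 5 times, and 1 Ezh2 knockout library with 0 counts of Cnn1 at 48 h is drawn at the lower end of the axis.

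In wild-type cells most members were lower after 96 h of 2i, and Acta2 was higher. In 1A, 8 of the 9 tested members passed the test, with 7 lower and 1 higher. In V19 the counts were again 7 lower and 1 higher. Over all tested genes 48.6% passed in 1A and 47.5% in V19, with 23.5% and 22.7% lower. The median log2 fold change of the members was -1.04 in 1A and -1.06 in V19, beside 0.0187 and 0.0122 over all tested genes.

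Among the contractile members Acta2 moved against the rest. It was at 25.2, 23.0 and 22.6 CPM in 1A at 0 h and at 46.0, 50.2 and 63.0 CPM at 96 h. In V19 it went from 2.93, 1.64 and 1.49 to 8.502, 5.70 and 7.07 CPM. The groups did not overlap in either line, although V19 stayed below every 1A library at both times. Its log2 fold change was 1.16 ± 0.15 (SE) in 1A (adjusted p = 3.65e-09, from edgeR's quasi-likelihood fit with Benjamini-Hochberg correction, as for all adjusted p-values here) and 1.74 ± 0.31 in V19 (adjusted p = 4.39e-06). Acta2 did not climb evenly: its means in 1A were 23.6, 39.9, 26.9, 49.9 and 53.0 CPM from 0 to 96 h, and the difference from 0 h passed the test at 12, 48 and 96 h but not at 24 h (0.18 ± 0.16, adjusted p = 0.347).

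Myl9 fell furthest in 1A. Its libraries were at 33.3, 33.0 and 32.3 CPM at 0 h, at 7.35, 9.55 and 9.60 CPM at 24 h and at 4.93, 7.82 and 8.26 CPM at 96 h. Most of the fall lay between 12 and 24 h, since the 12 h libraries were still at 20.9 to 24.8 CPM. The log2 fold change at 96 h was -2.25 ± 0.19 (adjusted p = 2.13e-14). V19 started lower, at 13.5, 18.2 and 16.4 CPM, and ended at 4.14, 6.66 and 4.83 CPM, a log2 fold change of -1.60 ± 0.23 (adjusted p = 5.48e-08). The separation of 0 h from 96 h was complete in both lines.

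Most calponin and tropomyosin values were lower too. Cnn2 went from 229 to 244 CPM in 1A at 0 h to 98.9 to 119 CPM at 96 h, a log2 fold change of -1.16 ± 0.12, and changed by -1.11 ± 0.13 in V19. Tpm1 fell in 1A from 314, 310 and 278 CPM to 138, 150 and 149 CPM (log2 fold change -1.04 ± 0.08), and fell by less in V19 (-0.53 ± 0.08). Cnn1 changed by -1.08 ± 0.31 in 1A (adjusted p = 0.00331), a call that was lost without 1A at 96 h replicate 1 (-0.76, adjusted p = 0.0585). In V19 Cnn1 changed by -3.01 ± 0.60, on 60 counts at 0 h and 7 counts at 96 h. Tpm2 did not pass the test in 1A, where the libraries overlapped (42.2 to 52.6 CPM against 33.0 to 43.3 CPM, -0.33 ± 0.17, adjusted p = 0.11), and it passed with no filter (-0.34, adjusted p = 0.0334), with the 2 groups compared alone (-0.34, adjusted p = 0.00598) and without the 5 distant libraries (-0.34, adjusted p = 0.0258). In V19 Tpm2 fell from 24.6, 37.9 and 32.4 CPM to 15.4, 14.6 and 15.0 CPM (-1.06 ± 0.21, adjusted p = 2.24e-05).

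Of the matricellular members Thbs1 fell early and strongly. In 1A it was at 41.5, 41.5 and 42.2 CPM at 0 h, at 21.6, 15.4 and 13.4 CPM at 12 h and at 11.3, 12.2 and 12.7 CPM at 96 h. The log2 fold change was -1.30 ± 0.16 at 12 h and -1.79 ± 0.17 at 96 h (adjusted p = 2.6e-13). V19 gave -1.71 ± 0.25 and -1.73 ± 0.26 at the same times, from 8.52 to 13.0 CPM at 0 h to 2.85 to 3.28 CPM at 96 h. Thbs1 was lower than at 0 h at each of the 4 later times in all 4 lines, and every such difference passed the test.

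The YAP targets Ccn1 and Ccn2 moved little. In 1A Ccn1 went from 73.3, 84.1 and 75.8 CPM to 52.9, 52.1 and 54.1 CPM (log2 fold change -0.55 ± 0.09, adjusted p = 1.4e-06). Ccn2 went from 111, 109 and 92.3 CPM to 65.7, 66.4 and 76.7 CPM (-0.59 ± 0.10, adjusted p = 2.39e-06). The groups did not overlap for either gene, and the levels at 96 h were 1.467-fold and 1.503-fold lower. In V19 Ccn1 did not pass the test (-0.15 ± 0.10, 95% confidence interval -0.35 to 0.05), and Ccn2 changed by -0.31 ± 0.10 (adjusted p = 0.0122), a call lost without V19 replicate 1 of 0 h or of 96 h.

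At 12 h the picture was mixed. In 1A 5 members passed, with Acta2 and Cnn1 higher and Cnn2, Myl9 and Thbs1 lower, beside 40.8% of all tested genes. The Cnn1 call (0.66 ± 0.25, adjusted p = 0.0321) was lost in 5 of the 6 fits that left out 1 of the libraries compared, with values of 0.61 to 0.69 in those 5. The Myl9 call (-0.48) was lost without 1A at 12 h replicate 3 (-0.41). In V19 3 members passed (42.3% of all tested genes): Tpm1 (0.28 ± 0.08) and Myl9 (0.44 ± 0.18) were higher and Thbs1 lower. Cnn2 and Ccn1 did not pass in V19, though all 12 h libraries lay below those of 0 h. Both passed, lower, with the groups compared alone (-0.275 and -0.228, adjusted p = 0.00361 and 0.0496) and without the distant libraries. The Myl9 call in V19 was lost in 5 of 6 fits without 1 library, with values of 0.32 to 0.47 in those 5. It was also lost with RLE size factors, a minimum mean of 1 CPM and DESeq2 (adjusted p of 0.0527 to 0.062). On the authors' values after removal of unwanted variation (RUV), Myl9 (0.41) and Tpm1 (0.22) were lost in V19 and Acta2 (0.74) passed. Myl9 was thus lower in 1A and higher in V19 at 12 h, and the test of that difference gave 0.92 ± 0.24 with an adjusted p of 0.122. That difference passed with no filter (0.93, adjusted p = 0.0291) and with the groups compared alone (0.92, adjusted p = 0.0121).

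The members passed in changing numbers over time. In 1A 5 members were lower at 24 h, and at 48 h 6 were lower and Acta2 was higher (46.4 and 53% of all tested genes passed in either direction). In V19 4 were lower at 24 h, and at 48 h 4 were lower and Acta2 was higher (40.4 and 50.8%), the Acta2 call being lost without the distant libraries (1.13, adjusted p = 0.0639). Cnn2, Myl9 and Thbs1 were lower at both times in both lines. The Ezh2 knockout had 7 members called at 12 h, with Acta2, Cnn1, Tpm1 and Tpm2 higher and Cnn2, Ccn1 and Thbs1 lower (50.1% of all tested genes). It had Tpm2 higher and 5 lower at 24 h and 6 lower at 48 h (46.7 and 49.1%). The Eed knockout had 6 higher and Thbs1 lower at 12 h, 5 higher and Thbs1 lower at 24 h, and 3 higher and 3 lower at 48 h (50.3, 41.1 and 49.2%). Acta2, Tpm1 and Tpm2 were higher at all 4 times in that line.

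Several of these calls were not stable. In the 6 fits that left out 1 of the libraries compared, Ccn2 at 24 h was lost in 3 for 1A, 4 for V19 and 5 for the Ezh2 knockout, with values of -0.27 to -0.16. The 1A call was also lost with no filter, with the groups compared alone and without the distant libraries (-0.16, adjusted p = 0.179). Ccn2 in the Ezh2 knockout at 48 h (-0.25) was lost in 4, Cnn2 in 1A at 48 h (-0.29) in 4, and Cnn1 at 48 h in 4 each for V19 (-1.15) and the Ezh2 knockout (-1.48). Cnn2 in V19 at 48 h (-0.38) was lost without 48 h replicate 1 or 3 (-0.28 in both). The V19 calls of Cnn1 and Cnn2 at 48 h were lost with the groups compared alone as well (adjusted p = 0.0911 and 0.129). In the Ezh2 knockout Tpm2 at 24 h (0.44) was lost in 4 such fits, with RLE size factors (adjusted p = 0.0548) and with DESeq2 (adjusted p = 0.0668), and was 0.19 on the RUV values. Its Cnn1 call at 12 h was lost without 0 h replicate 2 (0.72), and its Ccn1 call at 48 h without 0 h replicate 1 (-0.22).

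In the Eed knockout Myl9 at 12 h (0.45) was lost without 0 h replicate 3 (0.27), without 12 h replicate 1 (0.38), with the 2 groups compared alone (adjusted p = 0.0539) and without the distant libraries (0.32, adjusted p = 0.208). Cnn1 at 12 h was lost without 12 h replicate 3 (1.00, adjusted p = 0.0795). Cnn2 at 24 h (0.30) was lost in 3 of 6 fits without 1 library, and with RLE size factors, DESeq2, a minimum mean of 1 CPM, the groups compared alone and the RUV values (0.11).

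**Figure D2:**
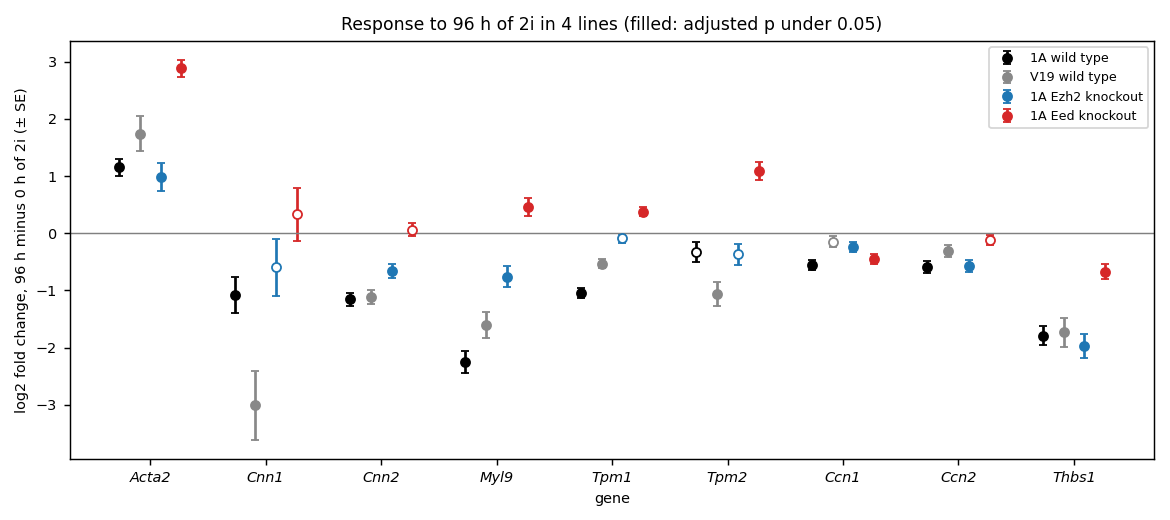
Log2 fold change from 0 to 96 h of 2i (± SE, 3 libraries per group) for the 9 tested genes in 4 lines; filled points passed the test at an adjusted p under 0.05. Acta2 is above 0 in all 4 lines, Thbs1 is below 0 in all 4, and Myl9, Tpm1 and Tpm2 are above 0 only in the Eed knockout.

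The responses of the knockouts to 2i were not tested against each other. In the Ezh2 knockout 6 of 9 members passed at 96 h, with Acta2 higher and 5 lower (42.8% of all tested genes passed). In the Eed knockout 6 of 9 passed as well, with 4 higher and 2 lower (39.7% of all tested genes). The median member changed by -0.57 in the Ezh2 knockout and by 0.34 in the Eed knockout, beside 0.0179 and 0.0524 over all tested genes.

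In the Ezh2 knockout Acta2 went from 3.96, 3.56 and 3.39 CPM to 8.59, 7.04 and 6.33 CPM, a log2 fold change of 0.99 ± 0.25 (adjusted p = 0.000732). Thbs1 changed by -1.97 ± 0.21, Myl9 by -0.76 ± 0.18, Cnn2 by -0.67 ± 0.12 and Ccn2 by -0.57 ± 0.10. The Ccn1 call (-0.24 ± 0.09, adjusted p = 0.0292) was lost when 0 h replicate 1, 96 h replicate 2 or 96 h replicate 3 was left out. Tpm1 stayed near its 0 h level, at 122, 127 and 113 CPM against 122, 112 and 106 CPM (-0.09 ± 0.08, interval -0.26 to 0.07). Tpm2 did not pass, though its libraries did not overlap (27.52 to 32.05 CPM at 0 h, 21.61 to 25.77 CPM at 96 h). It passed, lower, with no filter (-0.38, adjusted p = 0.0244), with the groups compared alone and without the distant libraries. On the RUV values Tpm1 (-0.23) and Tpm2 (-0.53) passed as lower.

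In the Eed knockout Acta2 rose most. It was at 12.8, 17.3 and 9.79 CPM at 0 h and at 93.6, 99.3 and 100.3 CPM at 96 h, a log2 fold change of 2.88 ± 0.15 or 7.38-fold (adjusted p = 9.47e-22). The rise was seen at each time, with means of 13.3, 35.1, 48.8, 57.2 and 97.7 CPM. Tpm2 went from 61.2, 64.0 and 47.8 CPM to 123, 125 and 118 CPM (1.08 ± 0.16, adjusted p = 1.4e-07). Tpm1 went from 330, 356 and 294 CPM to 423, 429 and 418 CPM (0.38 ± 0.08) after a peak mean of 572 CPM at 24 h. Both tropomyosin genes were higher than at 0 h in every later library. Myl9 dipped to a mean of 12.8 CPM at 48 h and was at 31.6, 33.7 and 32.3 CPM at 96 h (0.47 ± 0.16, adjusted p = 0.0138), a call lost without 0 h replicate 3 (0.29, adjusted p = 0.186). On the RUV values the Tpm1 and Myl9 calls at 96 h were lost (0.03 and 0.28, adjusted p = 0.839 and 0.403). Thbs1 (-0.67 ± 0.13) and Ccn1 (-0.45 ± 0.08) were lower at 96 h, whereas Ccn2 and Cnn2 did not pass. Ccn2 passed as lower with the groups compared alone (-0.16, adjusted p = 0.0328) and on the RUV values (-0.495, adjusted p = 0.000371).

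Whether the responses themselves differed from that of 1A was tested with interaction terms. For the Eed knockout at 96 h 7 of 9 members passed, all with the more positive response in the knockout, beside 27.3% of all tested genes in either direction and 14.9% in that direction. The difference was 2.71 ± 0.25 for Myl9 (adjusted p = 1.48e-12), 1.72 ± 0.22 for Acta2, 1.42 ± 0.11 for Tpm1 and 1.41 ± 0.23 for Tpm2. Cnn2 differed by 1.22 ± 0.17, Thbs1 by 1.12 ± 0.21 and Ccn2 by 0.47 ± 0.14, while Ccn1 did not pass (0.10 ± 0.12, interval -0.15 to 0.35). Cnn1 did not pass either (1.42 ± 0.56, adjusted p = 0.0504), but passed with RLE size factors, DESeq2, no filter, a replicate block (adjusted p = 0.0494), the groups compared alone and without the distant libraries. On the RUV values the calls of Thbs1 (0.67, adjusted p = 0.116) and Ccn2 (0.23, adjusted p = 0.327) were lost. Already at 12 h 6 members passed for the Eed knockout, all more positive (11.2% of all tested genes), from Acta2 at 0.65 ± 0.22 to Tpm2 at 0.97 ± 0.23. The Acta2 call at 12 h (adjusted p = 0.0472) was lost in 10 of the 12 fits that left out 1 of the libraries compared, with values of 0.48 to 0.70 in those 10.

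For the Ezh2 knockout 3 members passed at 96 h (12.2% of all tested genes), each less lowered than in 1A: Myl9 by 1.49 ± 0.27, Tpm1 by 0.95 ± 0.12 and Cnn2 by 0.49 ± 0.17. The Cnn2 call (adjusted p = 0.0469) was lost in 11 of the 12 fits without 1 of the libraries compared. At 12 h 0 members passed for the Ezh2 knockout in edgeR (2.91% of all tested genes) and 0 in DESeq2, with 4 at an unadjusted p under 0.05, and Myl9 passed with no filter, with the groups compared alone and without the distant libraries (0.73, 0.71 and 0.70). Without the distant libraries Ccn1 passed too, in the other direction (-0.39, adjusted p = 0.0261). V19 differed from 1A at 96 h in Tpm1 (0.52 ± 0.12, adjusted p = 0.00769, beside 1.68% of all tested genes). With no filter Tpm1 was lost (0.51, adjusted p = 0.0609) and Tpm2 passed (-0.73, adjusted p = 0.0276), and without the 5 distant libraries 3 members passed. For V19 at 12 h 0 members passed in edgeR, where 0.119% of all tested genes did, and 0 in DESeq2, with Cnn2 and Myl9 (2 members) at an unadjusted p under 0.05. Myl9 passed there with no filter and with the groups compared alone (adjusted p = 0.0291 and 0.0121).

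The 2 wild-type lines were far apart at the start. At 0 h all 9 tested members were lower in V19 than in 1A, beside 10.5% of all tested genes that differed in either direction and 5.53% that were lower. The median member differed by -0.93, and all tested genes by -0.00133 in the median. Acta2 differed most, by -3.49 ± 0.25 or 11.2-fold (adjusted p = 6.16e-16), and Thbs1 next, by -2.00 ± 0.17. Myl9, Tpm1 and Ccn1 differed by -1.05 ± 0.17, -0.93 ± 0.08 and -0.86 ± 0.09. No V19 library at 0 h reached the lowest 1A library for any of these genes. The calls of Cnn1 (-1.08 ± 0.32, adjusted p = 0.0173) and Tpm2 (-0.63 ± 0.18, adjusted p = 0.0133) were lost without V19 replicate 2 and V19 replicate 1, respectively, and also without 1A replicate 1. The Tpm2 call was lost without 1A replicate 2 as well.

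The gap between the wild types held for Acta2 and Thbs1 through 2i. Acta2 differed by -3.49, -3.39, -2.98 and -2.91 at 12, 24, 48 and 96 h, and Thbs1 by -2.41, -1.89, -2.34 and -1.94, each past the test. At 12, 24, 48 and 96 h 7, 8, 7 and 7 of 9 members were lower in V19, beside 11.3, 13.8, 8.38 and 7.45% of all tested genes that differed in either direction. At 48 h, where 2 of the 3 V19 libraries are among the distant ones, the calls of Cnn1, Cnn2, Tpm1, Tpm2 and Ccn1 were lost with the 2 groups compared alone (adjusted p of 0.0785 to 0.279), and that of Cnn1 also without V19 replicate 3 (-1.23, adjusted p = 0.137) and without the distant libraries (-1.38). Myl9 (-0.40 ± 0.26) and Ccn2 (-0.26 ± 0.10) did not pass at 96 h.

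The Ezh2 knockout also lay below 1A wild type. At 0 h all 9 tested members were lower, beside 22.8% of all tested genes that differed and 10.9% that were lower, and the median member differed by -0.70. Acta2 was at 3.39 to 3.96 CPM against 22.6 to 25.2 CPM (-2.70 ± 0.21, 6.51-fold, adjusted p = 3.23e-15). Cnn1 differed by -2.11 ± 0.35, Thbs1 by -1.44 ± 0.16 and Tpm1 by -1.32 ± 0.08. The remaining 5 members differed by -0.70 to -0.33. This comparison and that of V19 share the 1A libraries, and at 0 h the means of the Ezh2 knockout and V19 were 3.64 and 2.02 CPM for Acta2, 15.3 and 10.3 CPM for Thbs1, and 121 and 158 CPM for Tpm1. The knockout was not tested against V19.

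At 12, 24 and 48 h 6, 7 and 7 members were lower in the Ezh2 knockout, beside 25.2, 29.3 and 32.2% of all tested genes that differed. The Cnn2 call at 12 h was lost without knockout replicate 3 (-0.255, adjusted p = 0.126). The Ccn2 call at 24 h was lost with the groups compared alone (-0.416, adjusted p = 0.0613). At 48 h it was lost with no filter, and without knockout replicate 2, knockout replicate 3 or 1A replicate 3 (adjusted p of 0.0547 to 0.0882). At 96 h 6 were lower and 1 higher than in 1A (13.2% of all tested genes). The calls of Cnn1 (-1.1, adjusted p = 0.148) and Ccn2 (-0.32, adjusted p = 0.0542) were lost without 1A at 96 h replicate 3. Acta2 was at 6.33 to 8.59 CPM against 46.0 to 63.0 CPM (-2.87 ± 0.17), and Thbs1 differed by -1.62 ± 0.23. Myl9 was the member that crossed over, from -0.70 ± 0.16 at 0 h to 0.79 ± 0.21 at 96 h (adjusted p = 0.00794), but without 1A at 96 h replicate 1 the latter was 0.57 with an adjusted p of 0.133. Ccn1 and Cnn2 did not differ detectably at 96 h, with intervals of -0.20 to 0.17 and -0.33 to 0.16.

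**Figure D3:**
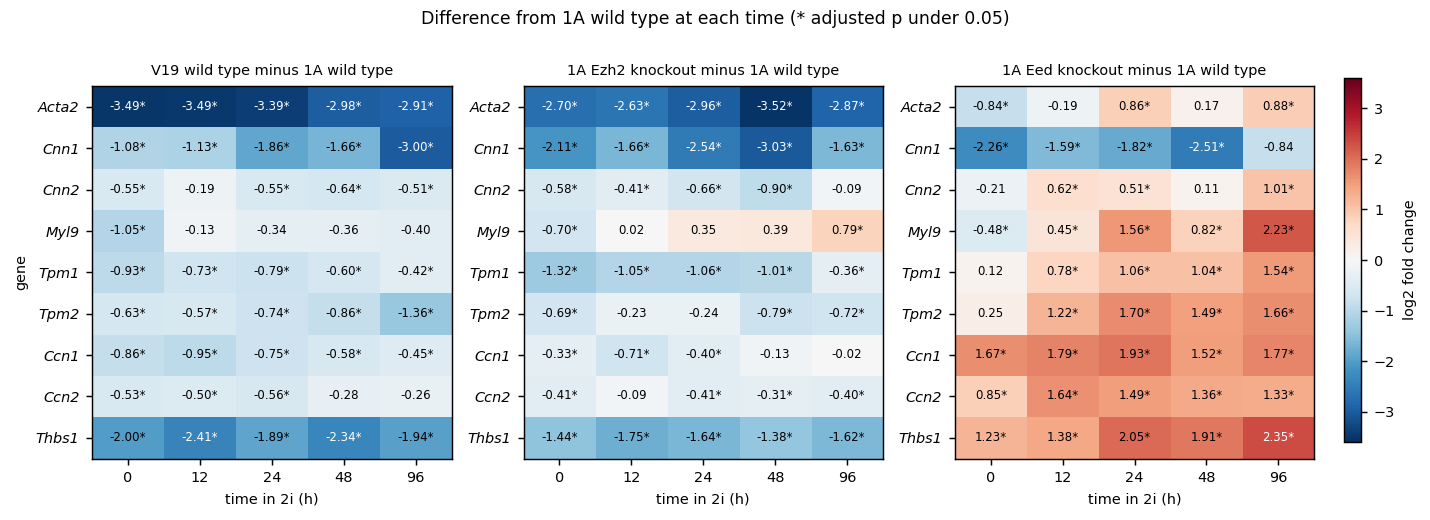
Log2 difference from 1A wild type at 0, 12, 24, 48 and 96 h of 2i for V19 wild type, the Ezh2 knockout and the Eed knockout, fitted on raw counts; stars mark an adjusted p under 0.05. V19 and the Ezh2 knockout are mostly lower than 1A, and the Eed knockout is higher for Ccn1, Ccn2 and Thbs1 at all times.

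At 0 h 6 of 9 members passed in the Eed knockout against 1A wild type, 3 in each direction, where 49.6% of all tested genes did. The 3 matricellular genes were higher: Ccn1 stood at 254, 275 and 214 CPM against 73.3, 84.1 and 75.8 CPM (1.67 ± 0.09, 3.18-fold, adjusted p = 2.89e-22). Thbs1 stood at 107, 93.9 and 92.3 CPM against 41.5, 41.5 and 42.2 CPM (1.23 ± 0.14), and Ccn2 at 186, 205 and 176 CPM against 111, 109 and 92.3 CPM (0.85 ± 0.10). None of these groups overlapped. Of the 6 tested contractile genes Cnn1 (-2.26 ± 0.37), Acta2 (-0.84 ± 0.17) and Myl9 (-0.48 ± 0.16) were lower, the last a call lost without Eed knockout replicate 3 (-0.30, adjusted p = 0.137). Cnn2, Tpm1 and Tpm2 did not pass, with intervals of -0.44 to 0.03, -0.04 to 0.28 and -0.08 to 0.59. With the groups compared alone Tpm2 passed as higher (0.28, adjusted p = 0.0147) and Cnn2 as lower (-0.18, adjusted p = 0.0293). The Cnn2 libraries did not overlap (176 to 226 CPM against 229 to 244 CPM in 1A).

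During 2i more members were above wild type than at 0 h. At 12, 24, 48 and 96 h 7, 8, 6 and 8 members were higher, beside 54.7, 62.8, 66 and 55.3% of all tested genes that differed in either direction. The 96 h background for higher genes was 30.9%. Acta2 did not pass at 12 h (-0.19) or 48 h (0.17), nor Cnn2 at 48 h (0.11). The Myl9 call at 12 h was lost without 1A replicate 3 (0.39, adjusted p = 0.0657) and without Eed knockout replicate 1 (0.38, adjusted p = 0.0628). It was also lost without the distant libraries (0.31, adjusted p = 0.212). At 48 h 7 of 9 members passed in either direction, close to the 66% of all tested genes. At 96 h the difference was largest for Thbs1 (2.35 ± 0.16) and Myl9 (2.23 ± 0.19), followed by Ccn1 (1.77 ± 0.09), Tpm2 (1.66 ± 0.17), Tpm1 (1.54 ± 0.08), Ccn2 (1.33 ± 0.10), Cnn2 (1.01 ± 0.12) and Acta2 (0.88 ± 0.13). Tpm1 shows the pattern plainly: the knockout libraries were at 423, 429 and 418 CPM when those of 1A were at 138, 150 and 149 CPM. Cnn1 was lower than in wild type at 12, 24 and 48 h, and at 96 h its difference of -0.84 ± 0.39 did not pass (adjusted p = 0.061), though it did with no filter, with the groups compared alone and without the distant libraries.

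Other cell type markers moved with the Eed knockout. Of all tested genes 49.6% differed from 1A in either direction at 0 h. The share was 55.3% at 96 h, with 30.9% higher. At 0 h all 14 primitive endoderm markers were higher than in 1A and summed to 7630 to 8130 CPM against 1280 to 1420 CPM. At 96 h 13 of 14 were higher, at 3320 to 3710 against 1760 to 2010 CPM. Of the 10 tested fibroblast markers 9 were higher and 1 lower at 0 h, the 15 listed genes summing to 76.5 to 80.8 against 35.5 to 48.6 CPM, and of the 7 tested smooth muscle markers 6 were higher at 96 h, the 10 listed genes summing to 81.7 to 86.8 against 48.6 to 52.2 CPM. The fibroblast genes Dcn, Lum and Fap were at or near 0 in the Eed knockout, none above 0.292 CPM. At 0 h the smooth muscle sums overlapped (68.0 to 74.8 against 63.1 to 70.5 CPM), and at 96 h the 8 cardiomyocyte markers summed to 40.6 to 41.6 against 18.5 to 23.1 CPM. Over all times the cardiomyocyte marker Myl4 reached 32.0 CPM in the Eed knockout and 34.0 CPM in V19. The cardiomyocyte markers Myh7, Tnnt2 and Nppa did not exceed 3.15 CPM in any library. The stem cell markers summed to 4960 to 5200 against 6910 to 7130 CPM at 0 h, with 7 of 10 lower, and to 3350 to 3680 against 8380 to 9590 CPM at 48 h. The part of such cells in the member differences was not tested.

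The RUV values gave other signs for the Eed knockout. On those values, with limma, Thbs1 at 0 h was -1.19 against 1.23 from raw counts, Ccn2 -0.42 against 0.85 and Ccn1 -0.03 against 1.67. At 96 h Acta2 was -1.48 against 0.88 and Thbs1 -0.52 against 2.35, and the count of members called went from 8 to 2. The targeted gene moved with this: in the Eed knockout Eed itself differed by -3.94 ± 0.12 from raw counts and by -0.61 from the RUV values at 0 h, and by -4.09 and -0.18 at 96 h. Ezh2 in its own knockout differed alike on both scales, by -3.67 and -3.69 at 0 h.

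**Figure D4:**
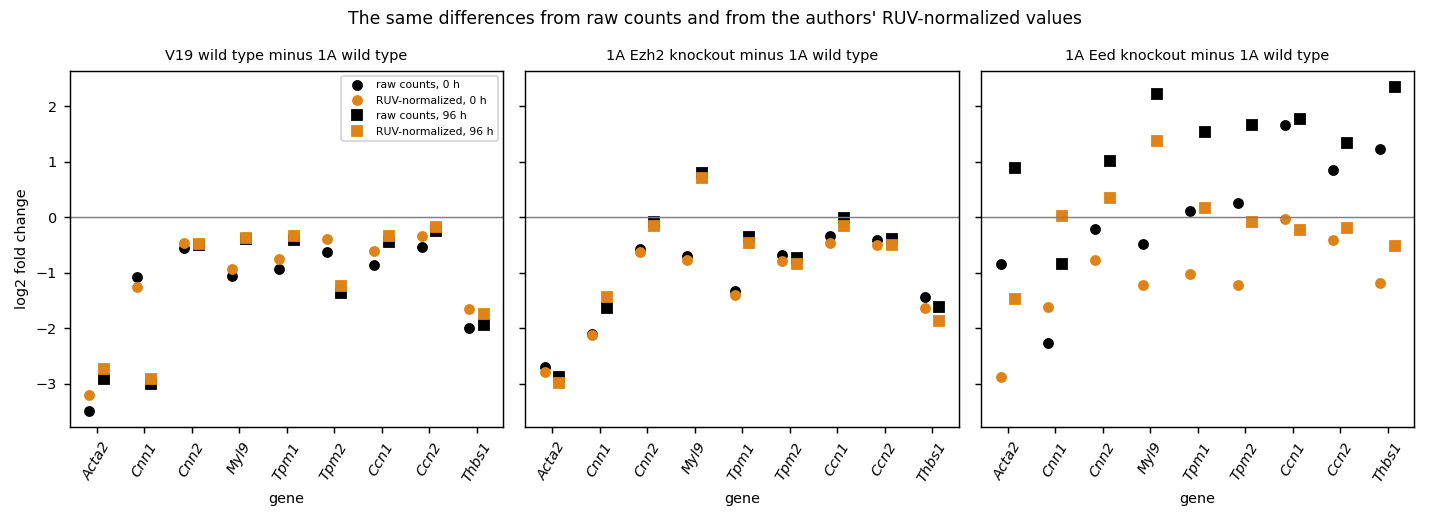
Log2 difference from 1A wild type at 0 h (circles) and 96 h (squares) for 9 genes, from raw counts (black) and from the authors' RUV-normalized values (orange). The 2 sources give the same signs for V19 and the Ezh2 knockout and other signs for several genes in the Eed knockout, where Thbs1 at 0 h goes from 1.23 to -1.19.

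The 2 knockouts were also compared directly. At 0 h 7 of 9 members were higher without Eed than without Ezh2 (45.3% of all tested genes differed), led by Thbs1 (2.67 ± 0.15) and Ccn1 (2.00 ± 0.09). At 96 h 8 of 9 were higher (52.1% of all tested genes), led by Thbs1 (3.97 ± 0.19, 15.6-fold) and Acta2 (3.75 ± 0.17, 13.5-fold). Acta2 was then at 93.6, 99.3 and 100.3 CPM without Eed and at 8.59, 7.04 and 6.33 CPM without Ezh2. Cnn1 did not pass at either time, though at 96 h its libraries did not overlap (1.87 to 2.38 CPM without Eed, 1.11 to 1.32 CPM without Ezh2). These rest on 43 and 25 counts. At 96 h Cnn1 passed as higher with the groups compared alone (0.835, adjusted p = 0.0326) and on the RUV values (1.47, adjusted p = 0.0281). On the RUV values, with limma, Acta2, Cnn2 and Tpm2 at 0 h and Ccn1 at 96 h changed sign. There the 0 h calls of Thbs1 (0.44, adjusted p = 0.23) and Ccn2 (0.09, adjusted p = 0.74) were lost.

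Other genes of the same pathways were followed from lists named by function. After 96 h of 2i in 1A, 4 of 6 tested SRF regulators were lower, among them Srf itself (-0.46 ± 0.08) and the coactivator gene Mrtfb (-0.84 ± 0.23). All 4 called immediate early genes of 5 tested were lower, led by Egr1 (-7.78 ± 0.31), a direct target of MEK and ERK signalling. Of 36 other contractile and cytoskeletal genes 13 were lower and 5 higher, with a median of -0.10, beside 48.6% of all tested genes called and 23.5% lower: Zyx, a focal adhesion protein, changed by -1.53 ± 0.16 and Pdlim7 by -1.21 ± 0.11, whereas the calponin gene Cnn3 rose by 0.77 ± 0.09.

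The other YAP targets did not share 1 direction in 1A. At 96 h 6 of 20 tested were higher and 6 lower, with a median of 0.34, beside the same 48.6% of all tested genes: Nt5e (2.01 ± 0.18) and Myof (1.66 ± 0.17) rose, and Gadd45a (-2.54 ± 0.14) and Igfbp3 (-1.71 ± 0.12) fell. Of 17 Hippo and TEAD genes 7 were higher and 6 lower, among them Wwtr1, which encodes TAZ (1.2 ± 0.09), and Amotl1, which encodes a YAP-binding angiomotin (-1.31 ± 0.13). At 12 h 11 of the 20 YAP targets were lower and 2 higher, with a median of -0.56, beside 40.8% of all tested genes called, when Ccn1 and Ccn2 did not pass. Genes around the matricellular members split as well: the thrombospondin genes Thbs2 and Thbs3 changed by -3.17 ± 0.58 and -2.32 ± 0.24, and the integrin gene Itgb5 by 1.12 ± 0.10.

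In V19 at 0 h 12 of 36 other contractile genes were lower than in 1A and 1 higher (Des, 0.54 ± 0.18), and 7 of 20 other YAP targets were lower, beside 10.5% of all tested genes that differed. Cald1, which encodes the actin-binding caldesmon, differed by -1.63 ± 0.10. In the Ezh2 knockout at 0 h 12 of 36 contractile genes were lower and 3 higher, and 4 of 20 YAP targets were lower and 3 higher, beside 22.8% of all tested genes. The skeletal actin gene Acta1 differed by -2.54 ± 0.31.

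In the Eed knockout at 96 h 55.3% of all tested genes differed from 1A and 30.9% were higher. Of 36 contractile genes 27 were higher than in 1A and 3 lower, with a median of 0.63, among them Zyx (2.84 ± 0.15), Csrp1 (2.11 ± 0.09) and Tagln2 (1.52 ± 0.08). Of 20 other YAP targets 14 were higher and 2 lower, with a median of 0.65, among them Crim1 (2.55 ± 0.14) and F3 (2.46 ± 0.14). At 0 h the same lists gave 17 higher and 8 lower and 13 higher and 4 lower, beside 49.6% of all tested genes called, and the YAP target Ankrd1 differed by 4.35 ± 0.28. 3 of 6 SRF regulators were higher at 96 h, namely Mrtfa (0.87 ± 0.15), Mrtfb (1.13 ± 0.22) and Srf (0.52 ± 0.08). The marker sums given for the Eed knockout apply here too, and RUV values were not computed for these genes.

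Across the 20 group means of log2 CPM the members formed a graded set. Ccn1 and Ccn2 were most alike (Pearson r = 0.957), and Tpm1 followed Ccn2 (0.917) and Tpm2 (0.911). Cnn1 stood apart, with r between -0.03 (Ccn1) and 0.41 (Cnn2). Acta2 correlated at 0.74 with Tpm1 and at 0.25 with Myl9. Among all genes with a sufficient mean level the closest to Ccn2 were Wnt4 (0.978), Anxa3 (0.967), Slc25a24 (0.965), Ascl2 (0.964) and Tnfrsf12a (0.958). The closest to Acta2 was the actin gene Acta1 (0.904), followed by Arl4c (0.816). The points share lines and wild-type parent, 5 of the 20 being the Eed knockout groups that stand high for Ccn2, so these values describe the groups and carry no test.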

How the data were processed

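Polyadenylated RNA was made into NEBNext Ultra II libraries and sequenced in 2 runs that were merged, per the labels' protocols. Each deposited count is the whole number of reads of a gene, from STAR 2.7.10b and featureCounts 2.0.3 on GRCm39, per the submitters' processing notes. MultiQC 1.14 and DESeq2 are listed there as well. The authors deposited RUV-normalized counts too, rounded and treated here as a score, with settings not given in the sources used here. Their transformed counts were not used here.

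Genes were matched by symbol and libraries grouped by label. edgeR 4.0.16 (R 4.3.3) fitted 1 quasi-likelihood model of the 20 groups with TMM factors, filterByExpr (minimum count 10, minimum total 15) and 40 residual degrees of freedom. Benjamini-Hochberg correction ran over all 15083 tested genes in each of 39 comparisons, with a threshold of 0.05. The standard error is the log2 fold change before shrinkage over the square root of F, intervals are at 95%, and CPM uses TMM-scaled totals.

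The members and gene lists were chosen with earlier results of these data known. Other genes named are called genes of a list, at most 3 per list and direction by adjusted p. Genes most like a member have a mean of at least 5 CPM, and Acta2 took the place of Tagln, which was not tested, after its values were seen. Tested on simulated data of 14226 genes, the 96 h response of 1A recovered 53.2% of the changes of 1.5-fold, 77.1% at 2-fold and 94.1% at 4-fold. The interaction of the Eed knockout at 96 h recovered 24.2, 67.1 and 94.1% at the same folds. Each simulation changed 62, 70 and 68 genes at these folds. That is a far smaller share than the 48.6% called in 1A at 96 h, so recovery in the data can differ.

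Other settings tried were DESeq2 1.42.0, RLE size factors, a minimum mean of 1 CPM, no minimum at all, a replicate block, a fit of only the groups compared, limma 3.58.1 on log2 of the RUV score plus 1, and a fit without each library. A fit without the 5 distant libraries was chosen after seeing the data.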

Additional observations from a re-analysis of the deposited data

Results flagged for a closer look

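By an interaction term in edgeR's quasi-likelihood test 17 responses, each of 1 gene in 1 line at 1 time, differed from that of 1A wild type. At 12 h, all in the Eed knockout and all more positive there, the differences in log2 fold change were 0.654 for Acta2, 0.787 for Ccn2, 0.824 for Cnn2, 0.935 for Myl9, 0.665 for Tpm1 and 0.968 for Tpm2. At 96 h in the Eed knockout they were 1.72 for Acta2, 0.471 for Ccn2, 1.22 for Cnn2, 2.71 for Myl9, 1.12 for Thbs1, 1.42 for Tpm1 and 1.41 for Tpm2. At 96 h in the Ezh2 knockout they were 0.491 for Cnn2, 1.49 for Myl9 and 0.954 for Tpm1, and in V19 wild type 0.515 for Tpm1. Myl9, the myosin light chain gene, had the largest of these values: it was lower at 96 h than at 0 h in 1A, V19 and the Ezh2 knockout and higher in the Eed knockout. Acta2 differed in size rather than in direction, since it was higher at 96 h in all 4 lines.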

How the results depend on the processing

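Of 351 member values, 345 were the same with DESeq2, 343 with RLE size factors and 345 with a filter at a mean of 1 CPM. With no filter 336 were the same, without the 5 distant libraries 333, and with the groups compared alone 315 of 347. A value counted as the same when it was called in both fits in 1 direction, or in neither fit whatever its sign. None of these reversed a called value. Leaving out 1 library at a time kept 2315 of 2430 values, with 104 calls lost, 11 gained and none reversed. Replicate numbers are shared between groups. Over 570 pairs of same-numbered libraries the deviations had a median r of 0.00198, with a range of -0.78 to 0.787. Differently numbered pairs had a median of -0.000892 and a range of -0.837 to 0.833. These pairs mix all lines and times, so a batch shared only within a line or a time was not tested. With a replicate block 349 values were the same, and Cnn2 in V19 at 12 h (-0.27, adjusted p = 0.0491) and the difference of the Cnn1 response of the Eed knockout at 96 h (1.42, adjusted p = 0.0494) gained a call. Members called for the difference of the V19 response at 96 h went from 1 to 3 with the groups compared alone, to 3 without the distant libraries and to 0 on the RUV values.

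Of 351 member values the RUV values kept 266, lost 31 calls, gained 18 and reversed 36. A reversed value had the other sign and a call in at least 1 of the 2 fits, so it need not pass in both. For the Eed knockout against 1A at 0 h, Ccn1 did not pass on the RUV values (-0.0258, adjusted p = 0.907, limma). Tpm1 there did not pass on raw counts and passed, lower, on the RUV values (-1.03, adjusted p = 1.13e-12, limma). The cause of these changes was not tested. For the Eed knockout at 48 h against 0 h the RUV values gave log2 differences of -0.0643 for Tpm1 and -0.456 for Ccn2. For the Eed knockout against 1A at 0 h they gave -1.03 for Tpm1, -1.22 for Tpm2, -0.0258 for Ccn1, -0.416 for Ccn2 and -1.19 for Thbs1. At 12 h they gave -0.27 for Myl9, -0.45 for Tpm1, -0.376 for Tpm2, -0.0625 for Ccn1 and -1.23 for Thbs1. At 24 h they gave -1.51 for Acta2, -0.179 for Cnn2, -0.321 for Tpm1, -0.0522 for Tpm2, -0.0768 for Ccn1, -0.0308 for Ccn2 and -0.809 for Thbs1. At 48 h they gave -2.43 for Acta2, -0.703 for Cnn2, -0.0987 for Myl9, -0.519 for Tpm1, -0.517 for Tpm2, -0.732 for Ccn1, -0.379 for Ccn2 and -1.3 for Thbs1. At 96 h they gave -1.48 for Acta2, -0.0927 for Tpm2, -0.235 for Ccn1, -0.19 for Ccn2 and -0.523 for Thbs1. Against the Ezh2 knockout at 0 h the Eed knockout gave -0.0899 for Acta2, -0.149 for Cnn2 and -0.435 for Tpm2. Against the Ezh2 knockout at 96 h the Eed knockout gave -0.084 for Ccn1. Members called for the Eed knockout against 1A at 96 h went from 8 to 2, 1 higher and 1 lower. Depth limits Tagln and Cnn1 most, and Acta2 in V19, which had 7 to 18 counts per library at 0 h.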
